A study of Drosophila melanogaster with 23 samples.

Results

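The glutathione S-transferase genes of the fly were followed in RNA-Seq of whole brains of Canton-S flies aged 5, 20, 30 and 40 days. The genes were chosen by symbol, namely Gst followed by the letter of the delta, epsilon, omega, sigma, theta or zeta class and a number, and 35 of the 17521 genes in the count table met this rule. They comprised 11 delta, 14 epsilon, 3 omega, 1 sigma, 4 theta and 2 zeta genes. Each library came from a pool of 18 dissected brains of 1 sex, and the flies of every group were of the same wild-type strain and had no treatment other than age. There were 3 libraries (A, B and C) for each sex and age, but only B and C for males of 30 days, since the study had set the other sample aside for contamination with females, so that 12 libraries came from females and 11 from males. Libraries are named here by sex, age and replicate, so that F30A is replicate A of 30-day-old females, and values are listed in the order A, B, C (B, C for 30-day-old males).

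Glutathione S-transferases are enzymes that join the tripeptide glutathione to electrophilic compounds, among them insecticides, plant toxins and aldehydes formed when lipids are oxidized, so that these can be exported or broken down. Insects carry an expanded set of delta and epsilon genes, which lie in tandem clusters and include enzymes linked to insecticide resistance. The other classes are shared more widely among animals and include enzymes with defined metabolic steps. In flies, part of the family is induced under oxidative stress by the transcription factor cnc, the counterpart of mammalian Nrf2, together with its small Maf partner maf-S, while Keap1 holds cnc in check. Within the brain, glia and the blood-brain barrier are known sites of detoxification.

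Total counts ran from 6770442 to 28687450 per library with a median of 15628443. A gene without a count in a library could thus still be present at up to 0.105 to 0.443 CPM (counts in a library of 1000000). This limit is the level of 3 counts, was taken from total counts without TMM scaling and covers counting error only. Levels of genes in CPM are scaled by TMM. The neuronal gene elav was at 236 to 593 CPM and the glial gene repo at 111 to 320 CPM in all 23 libraries. Marker sums of the 2 brain cell types nevertheless differed between ages. In females the 7 glial genes summed to 5133 to 8919 CPM at 5 days and 3224 to 3938 CPM at 40 days, without overlap. The glial sums of males did not overlap between these ages either. They were 5879 to 9618 CPM at 5 days and 3214 to 5454 CPM at 40 days. The 5 neuronal genes summed to 2036 to 2607 CPM in 30-day-old females, below 5-day-old females (3279 to 5228 CPM) and 30-day-old males (3989 to 4367 CPM). RNA of other tissues was present as well, and its amount differed between libraries. The summed level of 10 genes of the midgut and of digestion was 6.27 to 26730 CPM, and all 10 genes had counts. Fat body genes, 8 in all, summed to 1639 to 122000 CPM, with 25490 to 67830 CPM in 5-day-old and 8925 to 17770 CPM in 40-day-old females. They include the yolk protein genes Yp1, Yp2 and Yp3, so a difference in this sum need not be one in the amount of fat body RNA. Hemocyte genes summed to 293 to 1162 CPM. In males the fat body sums were 3610 to 9581 CPM at 5 days and 1639 to 3636 CPM at 40 days. The 9 genes of the retina summed to 1627 to 31300 CPM. Their sum was 24780, 4620 and 1627 CPM in F5A, F5B and F5C, and the part of retinal RNA in the values of the members was not tested. The midgut gene mex1 exceeded 10 CPM in 5 libraries, namely M40C and, among females, F5B, F30A, F30B and F40A, and did not in the other 18. These 5 are called the mex1 libraries, and results that rest on them are given with and without them. The cut lies in no wide gap, with mex1 at 16.5 CPM in F5B and 16.7 in F30B, and at 7.93 in F20A and 7.13 in M20A. The other 18 had midgut and digestion sums of up to 5398 CPM, in M20A, so leaving out the 5 does not remove all such RNA. Library numbers in the labels ran in blocks by age, so order of handling and age cannot be told apart, and a lower level in whole brains cannot be told apart from fewer cells of the type that uses the gene.

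All 35 genes were found in the Ensembl annotation of the BDGP6.54 assembly, the same sequence as the dm6 build used for the counts. The 11 delta genes form 1 cluster on chromosome arm 3R between positions 12364776 and 12385624, with GstD10, GstD9 and GstD1 on the minus strand and the others on the plus strand. GstE1 to GstE10 form a cluster on 2R between 18396638 and 18409835, with only GstE10 on the minus strand. The omega genes lie on 3L between 8518885 and 8524866 and the zeta genes on 3R between 9455517 and 9460652. GstT1 and GstT2 are neighbours on 2R, whereas GstT3 and GstT4 lie far apart on the X chromosome. Members of the clusters resemble each other in sequence, so counts may be divided uncertainly between neighbours. GstT2 shares 25.1% of its exon bases with CG12926 on the opposite strand, and the strand setting of the counting is not stated, so its counts are uncertain too. The other exon overlaps with neighbouring genes were between 0.566% and 5.08% of a gene's exon bases.

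When levels were expressed per kilobase of exon (RPKM), so that genes could be compared with each other, a few members made up most of the family. GstD1, an enzyme known to break down DDT and the usual reporter of cnc activity in flies, had the highest mean of 529.8 RPKM over the 23 libraries, with a range of 357 to 795 RPKM. It was followed by GstE12 at 229 RPKM, GstD9 at 149 RPKM, GstE2 at 103 RPKM and GstE9 at 77.5 RPKM. Those 5 genes made up 52.5% to 72.8% of the summed RPKM of the family in a library, with a median of 65.9%. The range of GstD1 did not overlap those of GstD9, GstE2 and GstE9 but met that of GstE12, which ran from 98.9 to 389 RPKM. Further down, GstE3, GstE6, GstS1, GstE1 and GstT4 had means of 68.2 to 54.1 RPKM with ranges that overlapped each other. By class, delta genes held 44.5% and epsilon genes 40.1% of the summed RPKM, theta genes 5.77%, omega genes 4.5%, sigma 3.75% and zeta genes 1.4%.

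At the other end, 4 members stayed under 1 RPKM on average, namely GstD4 at 0.512 RPKM, GstE10 at 0.451 RPKM, GstD7 at 0.401 RPKM and GstD6 at 0.0709 RPKM. GstD6 had only 17 counts in all, in 6 libraries, and GstD7 had counts in 11 libraries. All 35 genes had at least 1 count somewhere, and 29 had counts in every library. The delta cluster thus held both the most abundant and the least abundant member of the family. After a filter on low counts 32 members were tested in females (not GstD4, GstD6 and GstD7), 33 in males (not GstD4 and GstD6) and 34 in the fit of all 8 groups (not GstD6).

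**Figure D1:**
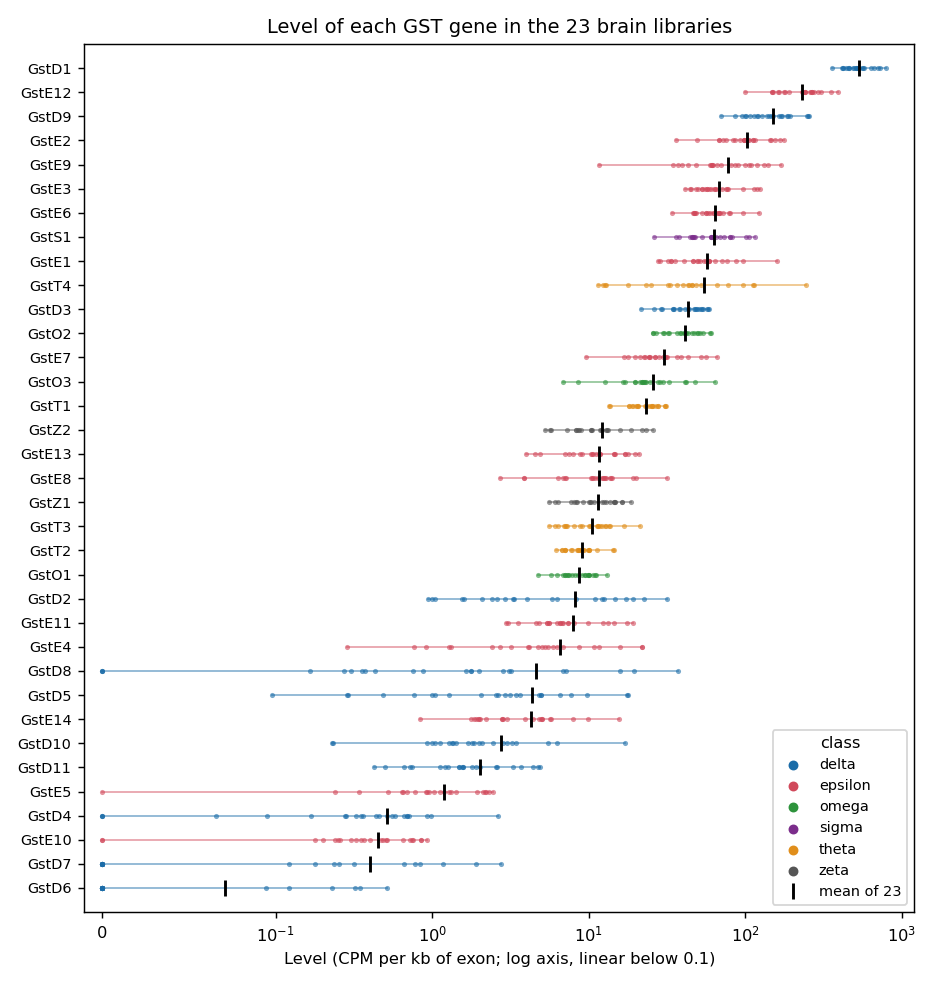
Level of each of the 35 glutathione S-transferase genes in CPM per kilobase of exon (log axis, linear below 0.1), with 1 point for each of the 23 libraries, a bar at the mean and colours for the classes. GstD1 stands at the top with 357 to 795, and GstD6 at the bottom with counts in only 6 libraries.

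Variation among replicates differed widely between members. The coefficient of variation within groups, pooled over the 8 groups, was 14.7% for GstT1, 17.3% for GstE13 and 17.5% for GstD1, and it reached 81.2% for GstT4, 99.2% for GstE4, 112% for GstD10 and 196% for GstD8. GstT4 was among the more abundant members at 54.1 RPKM and yet varied more than GstE13 at 11.7 RPKM.

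The question of the design was how expression in the brain changes with age in each sex. A gene was called changed when it passed a false discovery rate (FDR) of 5% both in the F test over the 4 ages and in the test of the contrast, with edgeR's quasi-likelihood test in each sex alone. In females no member was called at 20 days against 5 days, where 2.97% of all genes were, although 10 of 32 members had an unadjusted p under 0.05 (8 higher and 2 lower), beside 20.7% of all genes. At 30 days GstD2 and GstE8 rose and GstD11 fell, which is 3 of 32 members against 6.67% of all genes. At 40 days GstD2 and GstE8 rose while GstD11, GstE13 and GstE2 fell, which is 5 of 32 members against 7.34% of all genes. Counts at an unadjusted p under 0.05 were 16 and 12 of 32 at these ages, beside 26.4% and 26.2% of all genes. DESeq2 with the settings of the study called 6, 10 and 10 members at 20, 30 and 40 days. The shares of all genes given here are from edgeR, so these DESeq2 counts have no background beside them. They are not read as a result about the members. No member was called at 40 days against 20 days or against 30 days, where 5.28% and 6.61% of all genes were, and 8 and 6 of 32 members had an unadjusted p under 0.05, beside 26.8% and 26.1%.

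Apart from calls, the median log2 fold change of the 32 members in females was 0.34, 0.51 and 0.15 at 20, 30 and 40 days against 5 days, beside −0.04, −0.00 and −0.03 for all genes. At 30 days 25 of 32 members had a positive fold change (78.1%, against 49.9% of all genes) and 13 were higher at an unadjusted p under 0.05 (40.6%, against 11.3%). In 15 of 32 members all 3 libraries at 30 days lay above all 3 at 5 days, as did 15.3% of all genes. The epsilon class had a median of 0.46 and the delta class 1.20 at that age, and all 3 omega and all 4 theta genes had positive values. By 40 days the epsilon median was 0.12 and the sigma and zeta genes had negative values, while the delta median was 1.04, all 4 theta genes had positive values and so had 2 of 3 omega genes. In summed CPM the epsilon genes stood at 602 ± 79.97 (SD, n = 3) at 5 days, 697 ± 20.8 at 20 days, 813 ± 88.7 at 30 days and 508 ± 26.7 at 40 days in females. The delta genes summed to 524 ± 79.7, 676 ± 86.0, 732 ± 139 and 558 ± 68.0 CPM at these ages. Their sum thus changed less by 40 days than their median fold change, and 3 of the 8 tested had negative values then. The medians without the mex1 libraries, which leaves 1 library at 30 days and 2 at 5 and at 40 days, were 0.35, 0.45 and 0.00.

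**Figure D2:**
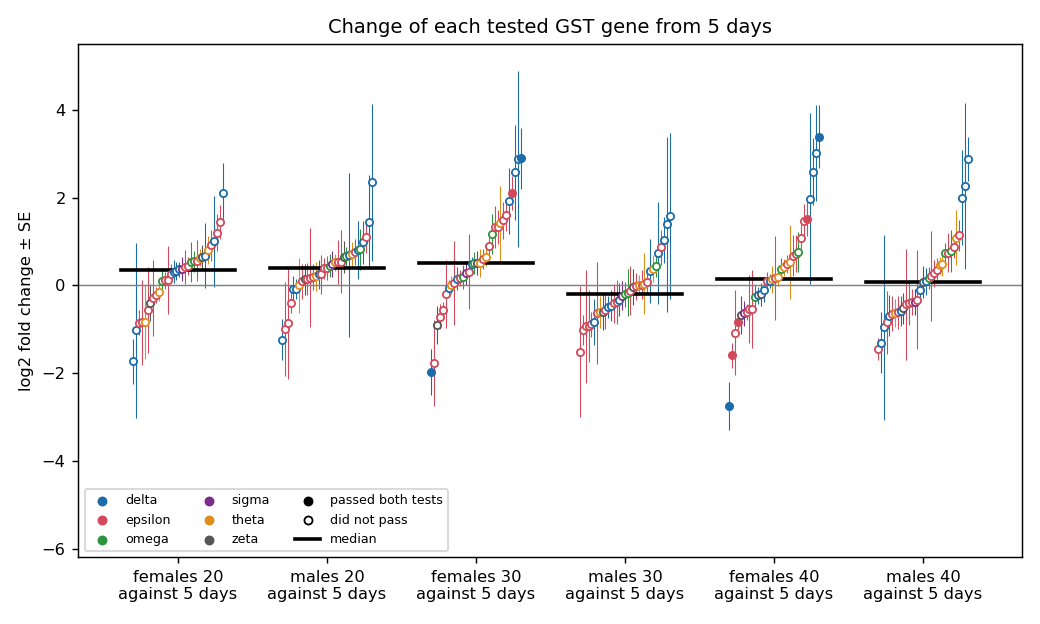
Log2 fold change against 5 days (points, with bars of 1 SE) of each tested member in females (n = 32) and males (n = 33), in rising order within a comparison, with the class in colour, filled points for members that passed both tests and a black line at the median. The medians at 30 days were 0.51 in females and −0.21 in males, and filled points occur in females only, at 30 and 40 days.

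GstD2 had the largest rise of the family at 40 days against 5 days in females, and the largest positive value in males. Its product conjugates isothiocyanates, the pungent compounds of mustard plants. In females GstD2 was at 2.46, 1.17 and 0.736 CPM at 5 days, 12.8, 2.42 and 4.26 at 20 days, 10.9, 14.1 and 8.92 at 30 days, and 6.07, 16.5 and 23.3 at 40 days. Males had 1.52, 0.765 and 0.686 CPM at 5 days, 1.76, 2.15 and 1.902 at 20 days, 1.14 and 2.98 at 30 days, and 8.08, 4.61 and 9.23 at 40 days. All 6 female libraries at 30 and 40 days lay above the 3 at 5 days, with F20A as high as those older libraries and the other 20-day libraries far below it. In males the 3 libraries at 40 days lay above all 8 younger ones. The log2 fold change in females was 2.90 ± 0.70 (SE) at 30 days (adjusted p = 0.0341) and 3.39 ± 0.71 at 40 days (adjusted p = 0.0164), about 10.5-fold at the latter age. In males it was 2.89 ± 0.50 at 40 days, and the contrast passed (adjusted p = 0.0229) but the F test over ages did not (adjusted p = 0.0895). GstD2 is low in these brains, at 8.2 RPKM on average. Its value in females at 40 days was 3.64 (adjusted p = 0.144) without the mex1 libraries, and both female calls were also lost when any 1 of 8 libraries was left out, among them every one of those at 30 days and F40B and F40C.

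GstE8, one of the 9 plus-strand genes of the epsilon cluster, was the other member to rise. In females GstE8 was at 4.35, 7.99 and 3.05 CPM at 5 days, 15.5, 13.9 and 12.8 at 20 days, 35.2, 22.5 and 12.02 at 30 days, and 15.2, 14.3 and 14.4 at 40 days. Males had 7.11, 4.35 and 7.96 CPM at 5 days, 15.8, 13.97 and 11.5 at 20 days, 12.3 and 11.8 at 30 days, and 13.6, 7.66 and 21.4 at 40 days. Every female library at 20, 30 and 40 days was above the 3 at 5 days, and the highest value of all was in F30A, a mex1 library, with F30B next. Male libraries at 20 and 30 days were all above those at 5 days, but M40B at 40 days was not. The log2 fold change in females was 1.44 ± 0.39 at 20 days (adjusted p = 0.0702), 2.11 ± 0.39 at 30 days (adjusted p = 0.0145) and 1.52 ± 0.39 at 40 days (adjusted p = 0.0343). In males it was 1.09, 0.86 and 1.14, and none of the 3 passed (adjusted p = 0.274, 0.800 and 0.116). Leaving out the mex1 libraries gave a value in females of 1.71 at 30 days, where 1 library was left (adjusted p = 0.322), and 1.95 at 40 days, where the contrast passed (adjusted p = 0.0331) and the F test did not. The call at 30 days was also lost without any 1 of 6 of the 12 female libraries and that at 40 days without any 1 of 9, with adjusted p of up to 0.0597 and 0.108.

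GstD11 had the largest fall of the family in females. In females GstD11 was at 4.96, 5.29 and 4.17 CPM at 5 days, 2.004, 0.7402 and 1.66 at 20 days, 1.42, 0.562 and 1.77 at 30 days, and 0.828, 0.8102 and 0.479 at 40 days. Males had 5.47, 3.68 and 2.15 CPM at 5 days, 1.67, 1.26 and 1.77 at 20 days, 1.36 and 2.89 at 30 days, and 1.75, 2.85 and 2.28 at 40 days. The 3 female libraries at 5 days lay above all 9 older ones by a factor of more than 2, whereas in males M5C was below libraries of 30 and 40 days. In females the log2 fold change was −1.97 ± 0.52 at 30 days (adjusted p = 0.0435) and −2.76 ± 0.55 at 40 days (adjusted p = 0.0126), about 0.148 of the level at 5 days. It was −1.73 ± 0.52 at 20 days (adjusted p = 0.0981). In males it was −1.24, −0.84 and −0.69 at 20, 30 and 40 days (adjusted p = 0.303, 0.875 and 0.429 at these ages). GstD11 is a gene of low level, at 2.01 RPKM, and its call at 30 days was lost without any 1 of 9 of the 12 female libraries (adjusted p up to 0.165). The call at 40 days was lost without F5A, F5B, F40B or F40C and without the mex1 libraries, where the fold change was −2.84 (adjusted p = 0.144).

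GstE13, which lies on 2R away from the epsilon cluster, had lower mean levels at 40 than at 5 days in both sexes. Its spread within groups was small over the 8 groups together, but the coefficient of variation was 45.7% in 40-day-old females. In females GstE13 was at 18.1, 18.99 and 21.1 CPM at 5 days, 8.44, 12.6 and 11.3 at 20 days, 12.4, 12.5 and 11.8 at 30 days, and 9.59, 4.19 and 5.15 at 40 days. Males had 15.4, 22.1 and 18.2 CPM at 5 days, 11.2, 15.5 and 15.4 at 20 days, 9.35 and 11 at 30 days, and 4.85, 7.93 and 7.51 at 40 days. The libraries of 5-day-old females lay above every older female library, and those at 40 days were below every younger one except for F20A, which was lower than F40A. In males the 3 libraries at 40 days were below all others. The log2 fold change at 40 days was −1.597 ± 0.29 in females (adjusted p = 0.00803), 0.331 of the level at 5 days. In males the value at 40 days was −1.44 ± 0.25, where the contrast passed (adjusted p = 0.0229) and the F test did not (adjusted p = 0.0962). The female call was lost without F40B or F40C, with values of −2.05 to −1.37 over the single libraries left out, and without the mex1 libraries the value was −2.06, which passed the contrast (adjusted p = 0.0345) but not the F test.

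GstE2, whose mosquito counterpart is known for resistance to DDT and pyrethroids, was the only one of the 5 most abundant members to be called with age. In females GstE2 was at 81.6, 87.8 and 128 CPM at 5 days, 92.7, 90.4 and 73.9 at 20 days, 76.8, 64.5 and 67.3 at 30 days, and 43.9, 60.4 and 60.1 at 40 days. Males had 87.2, 130.3 and 148 CPM at 5 days, 137, 93.3 and 158 at 20 days, 87.7 and 99.6 at 30 days, and 99.5, 103 and 32.1 at 40 days. Female libraries at 40 days were below all 9 younger ones. The lowest value of all was in a male library, M40C, which is a mex1 library, while the other male libraries at 40 days were within the range at 5 days. In females the log2 fold change was −0.84 ± 0.18 at 40 days (adjusted p = 0.0161), and in males it was −0.64 and did not pass (adjusted p = 0.4). The 40-day-old females also had the lower glial and fat body sums given above, and the part of these in the falls of GstE2, GstE13 and GstD11 was not tested. Glial sums were lower in 40-day-old than in 5-day-old males as well, and their part in the male values was not tested. The female call of GstE2 was lost without any 1 of 9 of the 12 female libraries (adjusted p up to 0.0652). It was also lost with library totals in place of TMM, with no filter on low counts, with a trend of counts with transcript length removed, with both sexes in 1 fit, with only the ages compared and without the mex1 libraries (−0.79, adjusted p = 0.144), while the fold change was between −0.86 and −0.72 over the alternatives other than single libraries left out, and between −0.97 and −0.63 over those.

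**Figure D3:**
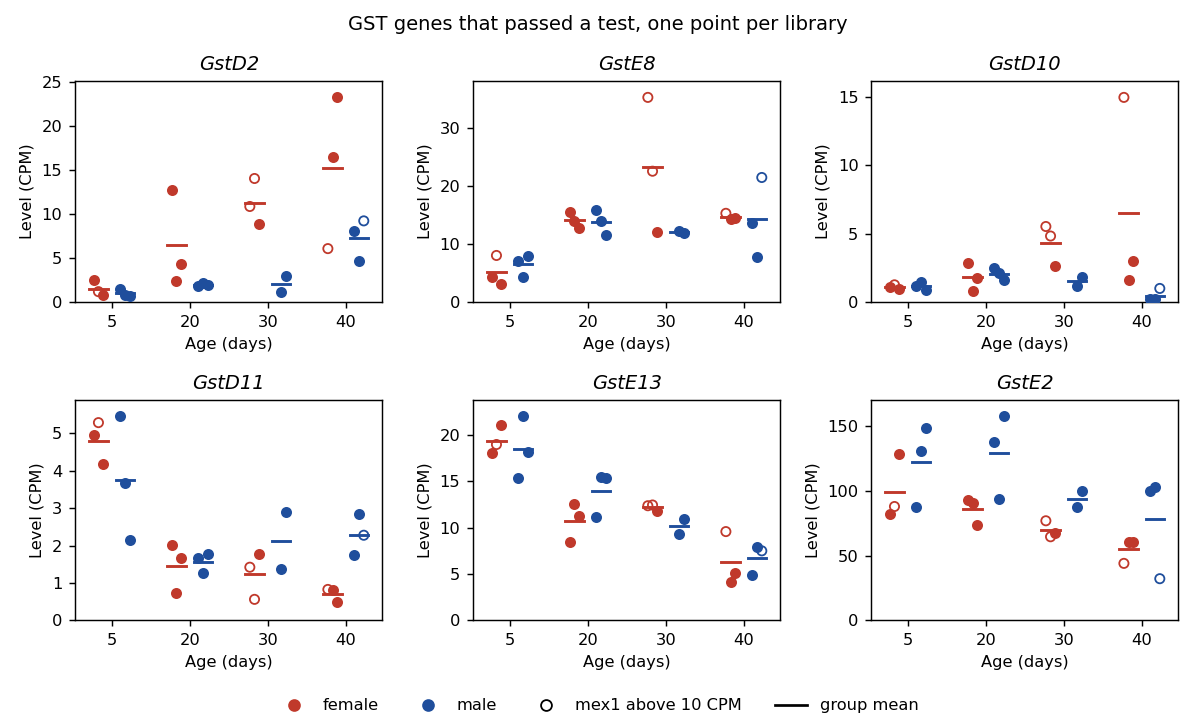
Level in CPM (linear axis from 0) of the 6 members that passed a test, by age in days, with 1 point per library in females (red) and males (blue), open points for the mex1 libraries and lines at group means. GstD2 and GstE8 were higher and GstD11, GstE13 and GstE2 lower in 40-day-old than in 5-day-old females, and the highest GstD10 value, 14.97 CPM, is an open point of 40-day-old females.

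In males no member was called in any comparison of ages by edgeR, and few genes were called at all, with 0.037% of all genes for the contrast of 20 with 5 days, 0.0463% for 30 with 5 days, 0.287% for 40 with 5 days, 0.037% for 40 with 20 days and 0% for 40 with 30 days. An unadjusted p under 0.05 was found for 6, 2 and 6 of 33 members in the first 3 of these comparisons (13.6%, 6.26% and 20.2% of all genes) and for 6 and 2 in the others (13.5% and 8.46%), and DESeq2 called 3 members (GstD2, GstE1 and GstE13) at 40 days. The share of all genes that DESeq2 called in males is not given here. The median log2 fold change of the members was 0.39 at 20 days, −0.21 at 30 days and 0.08 at 40 days, beside 0.01, −0.02 and −0.01 for all genes. At 20 days 27 of 33 members had positive values (81.8%, against 50.9% of all genes), and at 30 days, where the group has 2 libraries, 21 of 33 had negative ones. Fold changes at 40 days against 5 days had the same sign in females and males in 68.8% of 32 members, beside 71% of all genes, so this share was near the background. At 20 days the share was 75% beside 72.2%, and at 30 days 56.2% beside 57.3%. Of the 2 members that passed the male contrast at 40 days, GstD2 and GstE13, each also passed in females and in the same direction.

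The members differed most between the sexes at 30 days. In the interaction of sex with age at that age, which is the female fold change from 5 days less the male one, 29 of 34 members had a positive value with a median of 0.96, beside 0.03 for all 11332 genes. Among them 9 had an unadjusted p under 0.05, all positive (26.5% of members, against 4.9% of all genes and 8.75% in either direction), namely GstE3, GstD1, GstE7, GstE11, GstE1, GstE6, GstT3, GstT1 and GstE8. None passed adjustment with edgeR, and neither did any other gene in any of the 3 interactions (0% called). GstE3 had the smallest p, with a difference of 1.64 ± 0.40 on the log2 scale (adjusted p = 0.558). The median was 0.60 without the mex1 libraries and 0.81 with library totals, a scaling that put the median of all genes at −0.13. The lower neuronal sums of 30-day-old females stand beside these values, and their part was not tested. Depth differed as well, with a median total of 12735231 counts in 30-day-old females and 24180368 in 30-day-old males. Its part was not tested either. At 20 and 40 days the median interaction of the members was 0.01 and −0.04, with 17 and 15 of 34 positive values, and 1 and 2 members had an unadjusted p under 0.05, beside 4.02% and 6.28% of all genes.

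GstD1, the most abundant member, was one of these 9. In females GstD1 was at 388, 349 and 429.5 CPM at 5 days, 557, 428 and 533 at 20 days, 670.1, 589.5 and 441 at 30 days, and 471, 356 and 407 at 40 days. Males had 353, 416 and 613 CPM at 5 days, 479.9, 380.5 and 446 at 20 days, 301 and 372 at 30 days, and 473, 385 and 433 at 40 days. The female values at 30 days were above the male ones, and F30A and F30B, both mex1 libraries, were the highest and the third highest of the 23, with M5C between them. At 30 days GstD1 was 0.75 ± 0.23 higher in females than in males on the log2 scale (adjusted p = 0.0631). At 40 days against 5 days its fold change was 0.09 in females (adjusted p = 0.767) and −0.10 in males (adjusted p = 0.840).

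Directly between the sexes, no member was called at 5, 20 or 30 days, where 0.168%, 0.344% and 0.997% of all genes were, and 3, 5 and 11 of 34 members had an unadjusted p under 0.05, beside 3.99%, 12.1% and 24.7%. DESeq2 called 0, 0 and 7 of the members at these ages, and the share of all genes that it called is not given here. All 11 at 30 days were higher in females (32.4% of members, against 12.4% of all genes). The share of all genes under that p, in either direction, was also highest at 30 days. The median difference, females over males, was −0.08, −0.11, 0.73 and −0.11 at 5, 20, 30 and 40 days. For all genes it was −0.02, −0.01, 0.05 and 0.00. At 40 days 1 member was called, beside 0.362% of all genes, and 3 had an unadjusted p under 0.05, beside 10.7%. This was GstD10, on the minus strand at the edge of the delta cluster. In females GstD10 was at 1.12, 1.25 and 0.911 CPM at 5 days, 2.84, 0.807 and 1.74 at 20 days, 5.52, 4.82 and 2.62 at 30 days, and 14.97, 1.62 and 2.995 at 40 days. Males had 1.19, 1.48 and 0.8696 CPM at 5 days, 2.46, 2.15 and 1.58 at 20 days, 1.18 and 1.83 at 30 days, and 0.202, 0.203 and 0.985 at 40 days. The highest library by far was F40A, a mex1 library, and the 3 libraries of 40-day-old males were below 1 CPM, with M40A and M40B the lowest of all. M40A and M40B had 3 counts each, the number used for the limit given above, and M40C had 16. The size of the difference between the sexes at 40 days is therefore uncertain. The log2 difference at 40 days was 3.79 ± 0.78 (adjusted p = 0.0376). It was 3.47 without the mex1 libraries (adjusted p = 0.220), and the call was also lost without F40A and without any of 12 other libraries. Over the single libraries left out the difference ran from 2.31 to 4.96.

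The remaining abundant members had no call with age. GstE12, on 2R away from the cluster, was the second most abundant gene of the family. In females GstE12 was at 367, 360.4 and 227 CPM at 5 days, 320.3, 383 and 338 at 20 days, 334, 369.9 and 404 at 30 days, and 209.9, 206 and 205 at 40 days. Males had 335, 248 and 544 CPM at 5 days, 494, 327 and 422 at 20 days, 251 and 267 at 30 days, and 372, 229 and 138 at 40 days. Its 3 libraries of 40-day-old females agreed closely and lay below all others of that sex. At 40 days the female contrasts passed against 20 days (−0.73 ± 0.19, adjusted p = 0.0468) and against 30 days (−0.78 ± 0.19, adjusted p = 0.0331), but the F test over ages missed the threshold (adjusted p = 0.0508). Against 5 days the fold change was −0.61 in females and −0.62 in males (adjusted p = 0.0632 and 0.383), and the lowest male library was M40C.

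GstD9, next to GstD1 on 3R, was lower on average in female than in male libraries at each age. In females GstD9 was at 67.1, 79.7 and 135 CPM at 5 days, 129, 114 and 111 at 20 days, 88.8, 94.3 and 93.04 at 30 days, and 78.6, 74.8 and 83.9 at 40 days. Males had 108, 151 and 198 CPM at 5 days, 201, 145 and 196 at 20 days, 101 and 148 at 30 days, and 118, 132 and 55.3 at 40 days. The ranges of the sexes overlapped at 5 and 40 days and not at 20 and 30 days. The log2 difference, females over males, was −0.70 ± 0.29 at 5 days and −0.61 ± 0.29 at 20 days (adjusted p = 1 and 0.408). GstE9, the last gene of the epsilon cluster, varied more. In females GstE9 was at 29.3, 48.1 and 9.11 CPM at 5 days, 47.4, 48.6 and 33.9 at 20 days, 78.3, 93.1 and 55.5 at 30 days, and 38.4, 51.7 and 48.4 at 40 days. Males had 83.5, 27.1 and 104 CPM at 5 days, 132, 67.5 and 109.5 at 20 days, 63.7 and 71.04 at 30 days, and 85.97, 46.99 and 30.8 at 40 days. Its lowest library was F5C and its highest M20A, and every comparison of ages had overlapping groups or missed the threshold. GstE9 shares 5.08% of its exon bases with imd on the opposite strand.

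Further members are described for their roles. GstS1, the sigma class enzyme, is abundant in muscle and conjugates a toxic aldehyde of lipid oxidation. In females GstS1 was at 104, 147 and 106 CPM at 5 days, 101, 183 and 181 at 20 days, 138, 121 and 188 at 30 days, and 85.8, 59.01 and 82.6 at 40 days. Males had 139, 107 and 229 CPM at 5 days, 262, 167 and 239.6 at 20 days, 138 and 138 at 30 days, and 156, 109 and 103 at 40 days. The 3 libraries of 40-day-old females were the lowest of the 23. At 40 days against 20 days its log2 fold change in females was −1.02 ± 0.28 (adjusted p = 0.0546), and against 5 days −0.64 (adjusted p = 0.173). The summed level of 8 muscle genes was 376 to 810 CPM in 40-day-old females and 270 to 704 CPM in 20-day-old ones. Its part in these values was not tested.

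GstE14 is required in the steroid-producing gland of the larva to make the moulting hormone ecdysone. In females GstE14 was at 10, 1.79 and 0.841 CPM at 5 days, 3.01, 5.05 and 5.76 at 20 days, 1.92, 4.98 and 4.44 at 30 days, and 1.86, 2.84 and 3.95 at 40 days. Males had 5.71, 2.01 and 7.96 CPM at 5 days, 15.8, 2.21 and 5.07 at 20 days, 2.83 and 2.81 at 30 days, and 4.85, 2.03 and 1.97 at 40 days. Single libraries stood out, namely F5A in females and M20A in males, and no age group was separate from the others. These libraries had the highest retina sums of their groups, 24780 and 31300 CPM. F30B, with a retina sum of 25850 CPM, had GstE14 at 4.98 CPM. The part of retinal RNA in these values was not tested. Its fold change at 40 days was −0.54 in females and −0.84 in males and did not pass (adjusted p = 0.707 and 0.549). GstZ1 belongs to the zeta class, known for a step of tyrosine breakdown. In females GstZ1 was at 9.14, 11.2 and 5.78 CPM at 5 days, 13.3, 14.9 and 13.3 at 20 days, 13.5, 11.7 and 13.2 at 30 days, and 9.796, 5.54 and 7.07 at 40 days. Males had 9.29, 5.07 and 11.4 CPM at 5 days, 17.1, 8.35 and 14.8 at 20 days, 9.39 and 7.703 at 30 days, and 12.4, 7.53 and 7.38 at 40 days. All 6 female libraries at 20 and 30 days were above the 3 at 5 days, and the ages of the male libraries overlapped. The fold change at 40 days was −0.21 in females and 0.08 in males (adjusted p = 0.673 and 0.923).

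GstO2 is an omega class gene, whose enzymes act on thiols and on dehydroascorbate. In females GstO2 was at 71.7, 93.3 and 45.02 CPM at 5 days, 89.9, 70.9 and 66.4 at 20 days, 105, 79 and 67.7 at 30 days, and 75.4, 46.9 and 51.8 at 40 days. Males had 63.4, 44.7 and 82.4 CPM at 5 days, 103, 71.6 and 85.4 at 20 days, 55.6 and 56.9 at 30 days, and 72.4, 52.96 and 87.3 at 40 days. The highest values were in F30A and M20A, and the libraries of 5 and 40 days overlapped in both sexes. At 40 days the fold change was −0.26 in females and 0.16 in males (adjusted p = 0.585 and 0.765).

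The other members are described by class. Among delta genes, GstD3 was even, at 16.1 to 43.6 CPM, while GstD5 ran from 0.0822 to 15.1 CPM and GstD8 from 0 to 30.1 CPM, with their highest 2 libraries in F30A and F40A. GstD5 had a log2 fold change of 3.02 ± 1.09 at 40 days in females with an adjusted p of 0.110. GstD4, GstD6 and GstD7 were at most at 1.91, 0.402 and 2.09 CPM. Among the epsilon genes of the cluster, GstE6 and GstE7, which lie next to each other before GstE8, passed the contrast of 30 days against 5 days in females with 0.90 ± 0.20 (adjusted p = 0.0273) and 1.603 ± 0.36 (adjusted p = 0.0258), but missed the F test (adjusted p = 0.0559 and 0.0522). GstE11 likewise passed the contrast at 40 days with 1.48 ± 0.39 (adjusted p = 0.0382) and missed the F test (adjusted p = 0.0519). GstE4 differed most among replicates of the class, with 18.5 and 18.3 CPM in F5A and M5A and 0.239 CPM in M5B. GstE5 and GstE10 did not exceed 1.79 and 1.06 CPM. GstT1, GstT2 and GstT3 of the theta class were at 13.5 to 31.1, 5.45 to 12.9 and 7.63 to 29.0 CPM, and GstT1 was higher at 20 days than at 5 days in every library of both sexes, with log2 fold changes of 0.63 and 0.52 that did not pass (adjusted p = 0.114 and 0.296). GstO1 and GstO3 were at 4.54 to 12.5 and 6.02 to 56.4 CPM, and GstZ2 at 12.3 to 59.7 CPM.

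**Figure D4:**
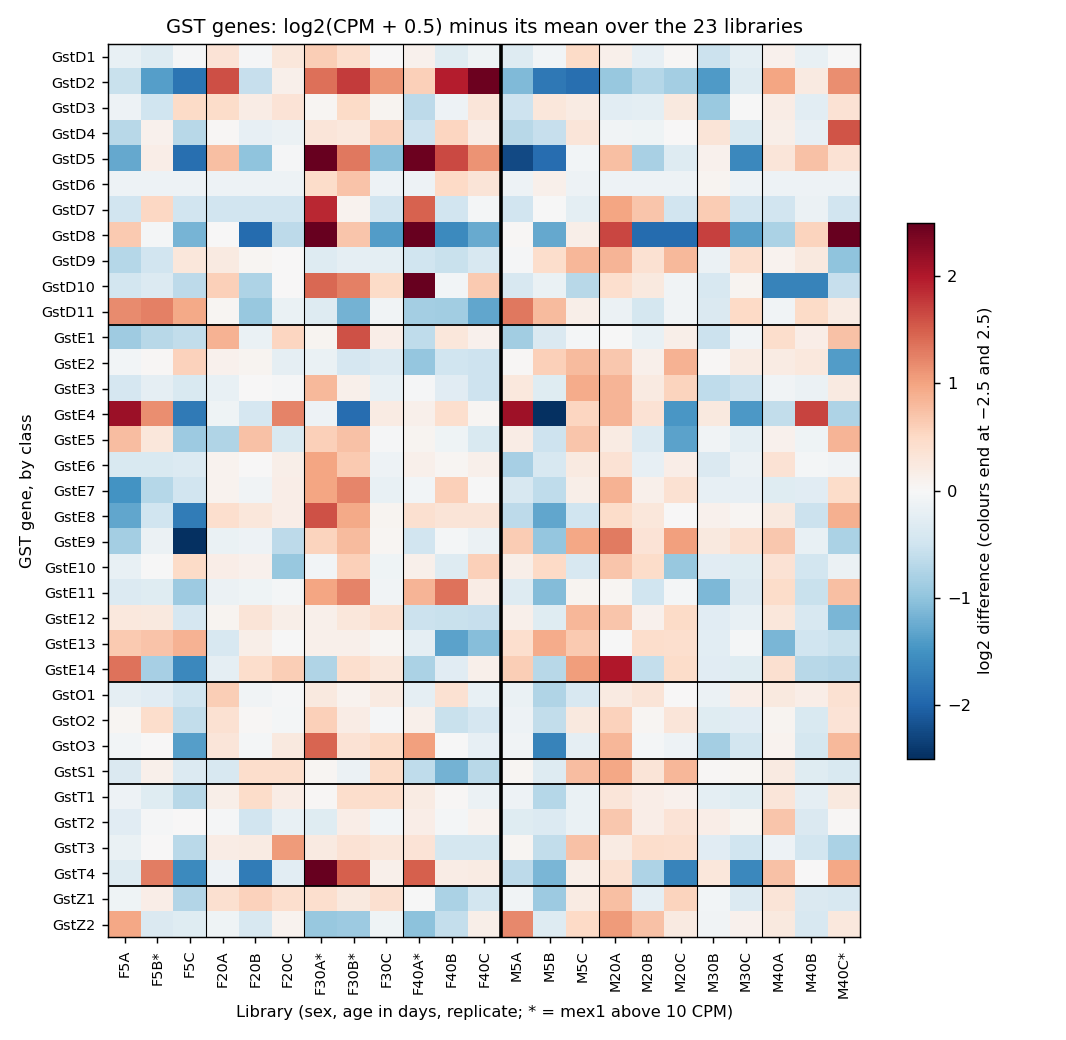
Heat map of the 35 members, by class, in the 23 libraries (named by sex, age in days and replicate, with a star for the mex1 libraries). Colours show log2(CPM + 0.5) less the mean of the gene over all libraries, from −2.5 (blue) to 2.5 (red), and the darkest red fields of GstD5, GstD8 and GstT4 lie in F30A, with GstD8 at 30.1 CPM there.

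Several members were high in libraries with high levels of the midgut genes. GstT4, an X-linked theta gene, was at 94.8 to 295 CPM in the 5 mex1 libraries and at 14 to 80.8 CPM in the other 18, so that the groups did not overlap. Its 5 highest libraries were F30A, F30B, F40A, F5B and M40C. In F30A, where the midgut and digestion genes summed to 26730 CPM, GstT4 was at 295 CPM, GstD8 at 30.1 CPM, GstO3 at 56.4 CPM and GstE8 at 35.2 CPM, each the highest of the 23 libraries. F5B, with the second highest midgut and digestion sum of 20610 CPM, had GstT4 at 118 CPM but GstD8 at 1.33 CPM, GstO3 at 20.5 CPM and GstE8 at 7.99 CPM. These last 3 values were below those of M20A, which had GstD8 at 5.55 CPM, GstO3 at 36.7 CPM and GstE8 at 15.9 CPM. M20A is not a mex1 library, but its mex1 was at 7.13 CPM and its midgut and digestion sum was 5398 CPM. Of 34 members in the fit of 8 groups, 9 had at least 3 of the mex1 libraries among their 5 highest (26.5%, against 14.1% of all genes). These were GstT4, GstE11, GstD5, GstD8, GstD10, GstE7, GstE8, GstO2 and GstO3. Others showed no such pattern, as GstD9, GstE2, GstE12, GstE14, GstS1 and GstZ2 had none of those libraries among their 5 highest. GstD9 was at 55.3 to 94.3 CPM in the mex1 libraries and at 67.1 to 201 CPM in the others.

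The mex1 libraries are not spread evenly over the groups, since they comprise 2 of 3 libraries of 30-day-old females and none of 20-day-old flies or of 30-day-old males. The part of midgut RNA in the values at 30 days was not tested beyond leaving those libraries out. In F30C, the remaining library of that group, the midgut and digestion genes summed to 2278 CPM, and GstE8 was at 12.02 CPM and GstD2 at 8.92 CPM, both above the 3 libraries of 5-day-old females. The midgut and digestion sums of those 3 were 32.8, 20610 and 6.27 CPM, so F30C was above F5A and F5C. F30C also had the highest fat body sum of all libraries, 122000 CPM. With the 5 libraries left out no member was called in any comparison, beside 2 genes of 11203 at 30 days and 9 at 40 days in females, and 6 and 12 of 33 members had an unadjusted p under 0.05 at these ages (18.2% and 36.4%, against 8.31% and 14.7% of all genes).

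**Figure D5:**
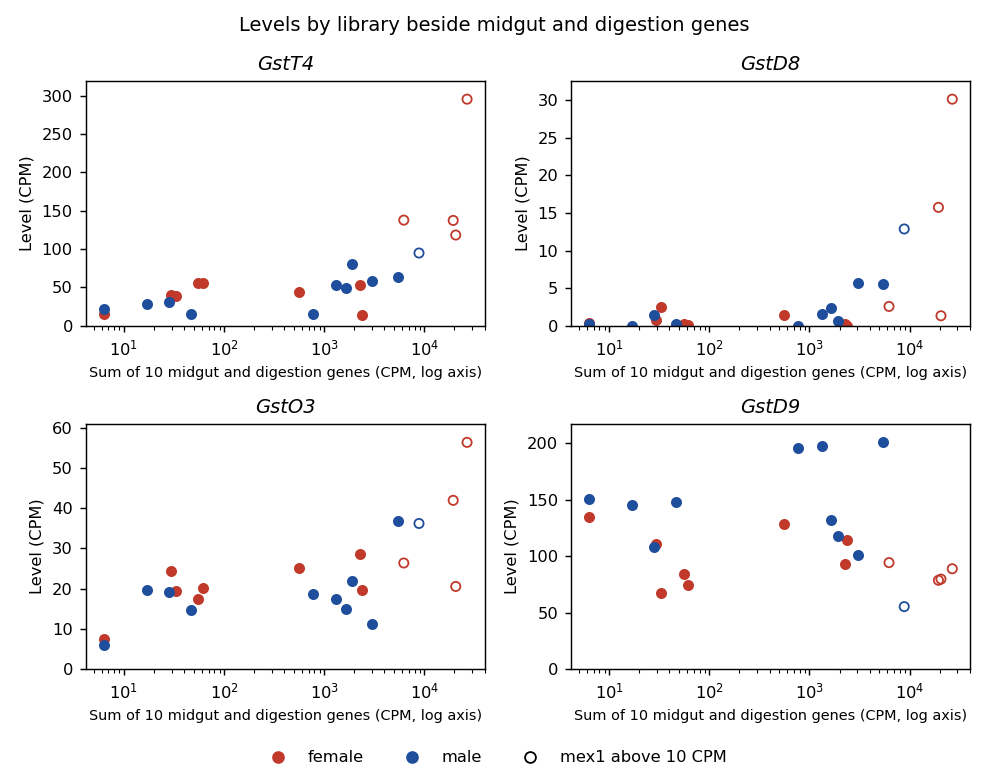
Level in CPM of GstT4, GstD8, GstO3 and GstD9 (linear axis from 0) against the summed CPM of 10 midgut and digestion genes (log axis), with 1 point per library in females (red) and males (blue) and open points for the mex1 libraries. GstT4 was at 94.8 CPM or more in the open points and at 80.8 CPM or less in the filled ones, while GstD9 was at 94.3 CPM or less in the open points.

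Genes that work with the family were taken from lists. Among 6 regulators in females, cnc rose at 20, 30 and 40 days, maf-S fell at 40 days and the others, which include Keap1, were not called. The level of cnc was 286 ± 9.65 CPM (SD, n = 3) at 5 days, 415 ± 23.7 at 20 days, 432 ± 21.7 at 30 days and 447 ± 34.6 at 40 days. The groups at the older ages did not overlap that at 5 days. The log2 fold changes were 0.53, 0.55 and 0.66 with SE of 0.11 each (adjusted p = 0.0368, 0.0187 and 0.00576). The call at 20 days was lost without any 1 of 10 of the 12 female libraries (adjusted p up to 0.0797) and that at 30 days without F30B (adjusted p = 0.0803). The call at 40 days held without any single library, but the value was 0.24 with an adjusted p of 0.321 once the length trend was removed, and it was 0.65 (adjusted p = 0.130) without the mex1 libraries. In males cnc was at 328 ± 31.7 CPM at 5 days and 462 ± 43.4 CPM at 40 days, a fold change of 0.50 that did not pass (adjusted p = 0.0979).

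The partner gene maf-S was at 73.8 ± 9.10 CPM in 5-day-old and 48.6 ± 0.252 CPM in 40-day-old females, a log2 fold change of −0.59 ± 0.11 (adjusted p = 0.00941) that stayed called without any single library. It also fell at 40 days against 20 days (−0.78 ± 0.11, adjusted p = 0.00947) and against 30 days (−0.62 ± 0.11, adjusted p = 0.0191), the former call being lost without F40B, the latter without any 1 of 4 libraries (F30A, F30B, F40B and F40C), and both without the mex1 libraries. The lower glial and fat body sums of 40-day-old females stand beside this gene too, and their part was not tested. Glial sums were lower in 40-day-old than in 5-day-old males as well. The level of maf-S was 72.4 ± 7.46 CPM in 40-day-old males, and the difference between the sexes at that age passed (−0.57 ± 0.12, adjusted p = 0.0347). That call was lost without any 1 of 14 of the 23 libraries (adjusted p up to 0.131), with library totals, with no filter on low counts and with the length trend removed. The calls of maf-S against 5 days and between the sexes were lost without the mex1 libraries, with adjusted p of 0.187 with age and 0.324 between the sexes. Keap1, the inhibitor of cnc, was at 12.1 ± 2.05 CPM at 5 days and 20.2 ± 2.28 CPM at 40 days in females, where the contrast passed (0.75 ± 0.20, adjusted p = 0.0375) and the F test did not, and at 18.2 ± 1.73 and 17.7 ± 2.10 CPM in males.

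Of 10 tested genes of glutathione synthesis and use none was called at any age against 5 days in either sex, with median log2 fold changes of 0.20, 0.33 and −0.18 in females. At 40 days against 20 days 1 of them, CG6852, fell in females, from 35.7 ± 0.539 to 20.8 ± 2.99 CPM (SD, n = 3; log2 fold change −0.755 ± 0.13, adjusted p = 0.0121). This call was lost without F40B or F40C, without the mex1 libraries, in the fit of both sexes and after removal of the length trend. Against 5 days the unadjusted p was under 0.05 for 3, 4 and 5 of the 10 in females, and for 0, 1 and 3 of them in males, in the order of the ages. Gclc, the catalytic subunit of the enzyme that makes the first intermediate of glutathione, was at 133 ± 7.91 CPM at 5 days and 164 ± 3.48 CPM at 40 days in females (log2 fold change 0.32 ± 0.12, adjusted p = 0.123). Of 19 other detoxification genes 1 rose and 2 fell in females at 40 days and none was called at 20 or 30 days, where 0 and 4 had an unadjusted p under 0.05. MRP, a transporter that exports glutathione conjugates, rose by 0.91 ± 0.19 on the log2 scale (adjusted p = 0.0160), from 100.5 ± 14.3 to 187 ± 51.8 CPM. The cytochrome P450 gene Cyp6a2 fell by 1.02 (adjusted p = 0.0217) and Jheh2, which encodes an epoxide hydrolase of juvenile hormone, fell by 0.64 (adjusted p = 0.0293). None of these 3 was called without the mex1 libraries, with values of 0.54, −0.88 and −0.67, and the calls of MRP and Cyp6a2 were also lost with the length trend removed and that of Jheh2 with library totals. Among the 12 female libraries left out singly, the call of Cyp6a2 was lost without any 1 of 10, that of Jheh2 without any 1 of 7 and that of MRP without F5B. Against 20 days MRP rose by 0.93 and Jheh2 fell by 0.65 (adjusted p = 0.0274 and 0.0387), and against 30 days Cyp6a2 fell by 0.87 and Jheh2 by 0.66 (adjusted p = 0.0446 and 0.0323), and each of these was lost without any 1 of at least 6 libraries.

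A further list held genes of other glutathione S-transferases or of proteins with a similar fold, and none of its 7 tested in females and 8 in males was called. Among them were Mgstl, the microsomal enzyme, and se, the omega class gene next to GstO2 that serves the synthesis of eye pigment. Mgstl had values of −0.82 and −0.73 at 40 days in females and males (adjusted p = 0.0902 and 0.240). The unadjusted p was under 0.05 for 1 gene of this group in females and 2 in males against 5 days, all at 40 days, for 2 and 2 in females at 40 against 20 and 30 days, and for 2 and 1 in males. No peroxiredoxin gene of 6 was called in either sex, and against 5 days there was 1 at an unadjusted p under 0.05 in females at 30 days and at 40 days and in males at 30 days. Of 5 genes of tyrosine breakdown none was called or reached that p.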

How the data were processed

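RNA of pooled dissected brains was made into libraries with the Ovation kit for Drosophila and sequenced in paired ends. Following the methods and the submitters' processing notes, the authors used Trimmomatic 0.35 for trimming, STAR for alignment to dm6 and HTSeq, in union mode, for counting per gene. The versions of STAR and HTSeq and the strand setting are not given in the sources used here. The deposited values are raw read counts per gene, neither normalized nor filtered, and a count was absent from all libraries in 2241 of the 17521 genes.

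The quasi-likelihood test of edgeR 4.0.16 (R 4.3.3, with filterByExpr, TMM and a robust fit) was run in females and males apart, as in the study, with the 4 ages as groups. Tests were two-sided with Benjamini-Hochberg adjustment over all genes tested. A change with age had to pass an FDR of 5% in both the F test over the 4 ages and the contrast. Interactions and differences between the sexes came from 1 fit of 8 groups. SE of fold changes were taken from the fitted value and its F statistic. CPM were scaled by TMM, and RPKM are these CPM per kilobase of merged exons (Ensembl release 115, BDGP6.54). Replicates are separate pools of flies, and no 2 libraries of a group agreed within sampling noise. Scripts were tested on simulated data. The figures were drawn in Python 3.11.15.

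The members, the gene lists and the set of mex1 libraries were chosen with earlier results of these data known. Values in every library are given for members called in any comparison, the 5 with the highest RPKM, the largest rise and fall at 40 days in each sex, and 5 members with known roles (GstD1, GstS1, GstE14, GstZ1 and GstO2), while genes of the lists are named where called, and Keap1, Gclc, Mgstl, se and the members described by class were singled out after their values were seen. One gene of the glutathione list, CG6835, was not analysed here. The alternatives were DESeq2 1.42.0 with the study's settings, DESeq2's size factors, library totals, no filter or one of at least 10 CPM in 3 libraries, removal of a trend with transcript length, a block for the replicate letter, fits of the 2 ages of a contrast, of both sexes together and with no F test, and each library or the 5 mex1 libraries left out.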

Additional observations from a re-analysis of the deposited data

How the results depend on the processing

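Counts of called members depended on the tool, on the filter and on single libraries. DESeq2 called 6, 10 and 10 members in females at 20, 30 and 40 days against 5 days (0, 3 and 5 with edgeR), 4 and 3 at 40 against 20 and 30 days (0 and 0), 3 and 2 in males at 40 against 5 and 20 days (0 and 0), and 7 between the sexes at 30 days (0). With at least 10 CPM in 3 libraries the counts were 5 in females at 30 against 5 days, 1 at 40 against 20 days, 1 at 40 against 30 days, and 1 and 0 between the sexes at 30 and 40 days. With both sexes in 1 fit they were 1 and 5 in females at 20 and 30 days, 1 at 40 against 30 days and 2 in males at 40 against 5 days. The contrast alone gave 5 in females at 30 days, 1 and 1 at 40 against 20 and 30 days and 2 in males at 40 days. With only the 2 ages compared there were 0 in females at 30 against 5 days and 2 and 2 at 40 against 20 and 30 days. DESeq2's size factors gave 1 and 1 in the latter pair, and no filter on low counts gave 1 in females at 30 against 5 days and 1 at 40 against 30 days. Without the mex1 libraries 0 members were called in females at 30 and 40 days and between the sexes at 40 days (3, 5 and 1 with them). The cause of these differences was not tested. Shares of all genes called under each alternative, or with single libraries left out, are not given here. The counts therefore show how calls depend on the processing and are not results about the members.

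Leaving out single libraries gave 0 to 1 members in females at 20 days, 0 to 5 at 30 days and 0 to 6 at 40 days, 0 to 3 and 0 to 1 at 40 against 20 and 30 days, and 0 to 5 and 0 to 1 between the sexes at 30 and 40 days. The log2 fold change at 40 days in females ran from −0.028 to 0.20 for GstD1, from −0.42 to 0.11 for GstD9, from −1.03 to 1.13 for GstE14, from −0.47 to 0.018 for GstZ1 and from −0.51 to 0.0034 for GstO2. In males it ran from −0.25 to 0.21 for GstD1, from −0.85 to 0.026 for GstE9, from −0.57 to 0.045 for GstS1, from −0.18 to 0.39 for GstZ1 and from −0.018 to 0.44 for GstO2. None of these 10 was called. Without the mex1 libraries GstD1 in females was at −0.10 and GstO2 in males at −0.0082, against 0.09 and 0.16 with them.

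The replicate letters were not taken to pair the samples, since not every same-letter pair correlated: r ran from −0.567 to 0.591 in females (10 of 18 pairs over 0.1, median 0.104, against −0.05 for other pairs) and from −0.397 to 0.340 in males (2 of 15 pairs over 0.1). With the letter as a replicate block 1 member was called in females at 20 days (GstE8) and 0 between the sexes at 40 days, where GstD10 was at 3.47 (adjusted p = 0.0747 with edgeR). The counts at 30 and 40 days against 5 days in females were 3 and 5 as without the block, but held GstE11 in place of GstD2. Library totals put the median log2 value of all genes at 0.14 in females at 40 against 20 days, 0.11 in males at 30 days, −0.13 in the interaction at 30 days and −0.13 between the sexes at that age, where the medians of the members were −0.11, −0.07, 0.81 and 0.55. Removal of the length trend put it at −0.12 in females at 40 against 30 days, −0.12 in the interaction at 40 days and 0.14 between the sexes at 30 days, with members at −0.25, 0.04 and 0.67. The median of the members changed sign under that removal at 40 against 20 days in females (0.05 for −0.23), in the interaction at 40 days (0.04 for −0.04) and between the sexes at that age (0.01 for −0.11), under library totals in the interaction at 20 days (−0.05 for 0.01), and without the mex1 libraries in males at 40 days (−0.05 for 0.08) and in the interaction at 40 days (0.01 for −0.04). At the depth of these libraries GstD4, GstD6 and GstD7, with 141, 17 and 108 counts over all 23 libraries, could not be compared between ages in females.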
